A study of Rattus norvegicus with 16 samples.

Results

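Gene expression in the rat dentate gyrus was compared between the 12 h group of a passive avoidance series (2 arrays) and its naive group (3 arrays), 5 of the 16 arrays in all. The arrays were chosen by their labels alone. Each was an Affymetrix RGU34A array (1 colour) hybridised with total RNA. The other 11 arrays, labelled 0, 2, 3, 6 and 24 h, had 2 arrays an hour except 6 h, which had 3, and they served as a second standard for the 12 h group. The labels describe every sample, the naive ones included, as coming from rats trained in passive avoidance, and they do not say from which event the hours are counted. They give neither strain, age, sex nor shock, and they do not say whether an array held RNA of 1 animal or of a pool. The p-values therefore measure the spread between these arrays, which may be technical.

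In passive avoidance a rat learns to withhold a movement, such as stepping down or entering a dark chamber, that was followed by a foot shock. The dentate gyrus is the input stage of the hippocampus: its granule cells receive the perforant path from the entorhinal cortex and send mossy fibres to CA3. Long-lasting memory needs new transcription and protein synthesis in the hours after training, and synapse number, cell adhesion and protein turnover in the dentate gyrus have been studied over that time.

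Intensities are given after each array was scaled to one 2% trimmed mean, in array units, with a floor at 5.05 units. A probe set is a group of probes summarised as 1 value for a transcript, and 308 probe sets carried several gene symbols. Of 8740 non-control probe sets, 6220 were bright enough to be tested, covering 3678 named genes. Before scaling, the trimmed mean was 33.3 units on 12 h replicate 1, the lowest of the 16 arrays, and 116 units on 12 h replicate 2, against 113 to 143 units on the naive arrays. The log2 values of the 12 h pair correlated at 0.93, against 0.94 to 0.96 for the naive pairs, and 14% of probe sets differed by more than 2-fold within the 12 h pair, against 9.2% to 11.6% within naive pairs. The beta-actin 3′ to 5′ signal ratio, a measure of how complete the labelled RNA was, stood at 2.40 and 2.80 on the 12 h arrays and at 1.49 to 1.70 on the naive arrays, and it exceeded the highest naive ratio on 12 of the 13 trained arrays. The Gapdh ratio was 1.70 and 1.60 at 12 h, against 1.12 to 1.28 in naive rats. Of 9 tested markers of dentate granule neurons, none reached an unadjusted p under 0.05; calbindin (Calb1) read 328 and 498 units at 12 h, against 289, 342 and 425 units in naive rats, and the brighter probe set of prodynorphin (Pdyn) 354 and 397 units at 12 h, against 339, 299 and 391 units. The dimmer Pdyn probe set was below naive, at 58.5 and 37.2 units at 12 h against 92.1, 65.7 and 67.3 units. The granule cell transcription factor Prox1 was not analysed here.

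The 15 probe sets lower than naive with the smallest p included Sh3gl2 (endocytosis), Cops7a and Pja2 (protein degradation) and Ndufs1 (respiratory chain). Each was chosen for its p and not for the size of its difference, and the probe sets of Pja2 disagreed. The choroid plexus transcript Ttr had the greatest difference of the named genes. No probe set passed the test across the whole array: 0 of 6220 (0%) had a limma adjusted p under 0.05, and the smallest adjusted p was 0.199. At an unadjusted p under 0.05, 282 probe sets were higher (4.53%) and 349 were lower (5.61%) at 12 h than in naive rats. Both 12 h arrays lay above all 3 naive arrays for 989 probe sets (15.9%) and below all 3 for 733 (11.8%). The median log2 difference over all tested probe sets was 0.06. All genes named here are therefore described by their values, and none is called changed.

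The smallest unadjusted p among named genes belonged to Sh3gl2, which encodes endophilin A1, a protein that bends membrane during the recovery of synaptic vesicles. It read 70.8 and 22.4 units at 12 h, against 185, 204 and 112 units in naive rats. Both 12 h arrays lay below all 3 naive arrays, although the 12 h arrays themselves stood more than 3-fold apart. The log2 difference was -2.02 ± 0.41 (SE), a level 4.06-fold lower at 12 h, with an adjusted p of 0.199. The 11 arrays of the other hours ran from 56.8 to 162 units with a median of 118, so 12 h replicate 2 lay below all of them and 12 h replicate 1 did not. Without 12 h replicate 1 the log2 difference was -2.85, with an adjusted p of 0.00847, and without 12 h replicate 2 it was -1.19, with an adjusted p of 0.242. Over all alternatives the adjusted p ran from 0.00847 to 0.452. Sh3gl1, the gene of the related endophilin A2, stood the other way, at 124 and 102 units at 12 h against 66.1, 82.3 and 54.1 units in naive rats, a log2 difference of 0.76 ± 0.24 (SE) and an unadjusted p of 0.00627.

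Some genes of the ubiquitin system were low as well, named here for their small p. Cops7a encodes a subunit of the COP9 signalosome, which removes the ubiquitin-like protein NEDD8 from cullin ubiquitin ligases. Its brighter probe set read 189 and 165 units at 12 h, against 433, 397 and 377 units in naive rats, a log2 difference of -1.19 ± 0.24 (SE) with an adjusted p of 0.199. Its second probe set was lower as well, at 129 and 122 units at 12 h against 188, 181 and 167 units. Pja2 encodes praja2, a RING ubiquitin ligase that acts on regulatory subunits of protein kinase A. One of its probe sets read 280.2 and 276 units at 12 h, against 653, 547 and 608 units in naive rats, and a second read 143 and 91.4 units at 12 h, against 511, 421 and 325 units. Those 2 probe sets had log2 differences of -1.11 and -1.85, while the brightest of the 3, at 1717 and 1295 units against 1441, 1284 and 1436 units, differed by 0.11. The probe sets of Pja2 thus disagreed. Ube2a, the gene of a ubiquitin-conjugating enzyme, read 97.0 and 105 units at 12 h, against 186, 169.96 and 196 units in naive rats, a log2 difference of -0.87 ± 0.22 (SE). Its 12 h values also lay below all 11 arrays of the other hours, which ran from 126 to 255 units. Ube2g1, a second conjugating enzyme, read 31.9 and 40.2 units at 12 h against 70.04, 79.8 and 69.8 units. Over the list of 30 proteasome and ubiquitin genes, 3 were lower and 0 higher at an unadjusted p under 0.05, where 4.16% of all 3678 genes were lower, and the list median was -0.07 against 0.08 for all genes. In that list 13 genes were higher than naive, and 3 lay below all naive arrays (9.57% of all genes did) and 4 above all of them (16.5% of all genes did). Against the other hours 6 of the 30 were lower and 0 higher, where 3.7% of all genes were lower, with a median of -0.17 against 0.09.

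Several subunits of the respiratory chain were lower at 12 h. Complex I passes electrons from NADH to ubiquinone at the head of that chain. The largest difference belonged to Ndufs1, the gene of its iron-sulphur subunit, whose probe set read 14.5 units and the floor at 12 h, against 27.8, 30.4 and 35.8 units in naive rats. Its log2 difference was -1.86 ± 0.46 (SE), with an adjusted p of 0.233. Ndufb2, an accessory subunit, was far brighter, with 515 and 741 units at 12 h against 1416, 1031 and 929.9 units in naive rats, a log2 difference of -0.84 ± 0.22 (SE). It had the smallest p of any named gene against the other hours. Its 12 h values lay below all 11 other arrays, which ran from 1028 to 1623 units, with a log2 difference of -1.05 ± 0.19 (SE), an unadjusted p of 3.5e-05 and an adjusted p of 0.133. Ndufa3 read 280.2 and 290.02 units at 12 h, against 709.7, 581 and 359 units in naive rats, and Ndufb1 228 and 158 units at 12 h, against 496, 336 and 258 units. Both genes were lower on each 12 h array than on any naive array, with log2 differences of -0.89 each.

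The pattern was followed over the 27 tested genes whose symbols begin with Nduf, a grouping by symbol and not by membership of complex I. The grouping was chosen after the values were seen and is so described without a test. At 12 h 18 of the 27 were below naive (42.2% of all genes were). At an unadjusted p under 0.05, 5 were lower and 0 higher, where 4.16% and 4.11% of all genes were. Against the other hours 22 of the 27 were lower (39.2% of all genes were). There 8 were lower at an unadjusted p under 0.05 (3.7% of all genes were) and 0 higher. In all, 4 (Ndufb2, Ndufa3, Ndufb9 and Ndufb3) lay below all 11 other arrays, as 1.01% of all genes did. Their median log2 difference was -0.19 against naive and -0.31 against the other hours. Naive replicate 1 carried most of the difference from naive: without it the median was -0.02 and 14 of the 27 were lower. The array medians of these genes were -0.30 and -0.20 at 12 h, and 0.20, -0.09 and -0.27 on naive replicates 1, 2 and 3. The 12 h arrays thus overlapped the naive range. Array medians of the other hours ran from -0.22 to 0.21, and 2 h replicate 2 lay between the 12 h arrays. Both comparisons use the same 12 h arrays. Of 13 tested cytochrome oxidase genes (complex IV) 3 were lower than naive, with a median of 0.14, and 5 were lower than at the other hours, with a median of 0.11. Of 10 tested ATP synthase genes 3 were lower than naive, with a median of 0.06. Against the other hours 7 of those 10 were lower, 2 of them at an unadjusted p under 0.05, with a median of -0.13. All 4 tested complex III genes were higher than naive, with a median of 0.18, and their median against the other hours was -0.07. Low values against the other hours were therefore not limited to genes beginning with Nduf.

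**Figure D1:**
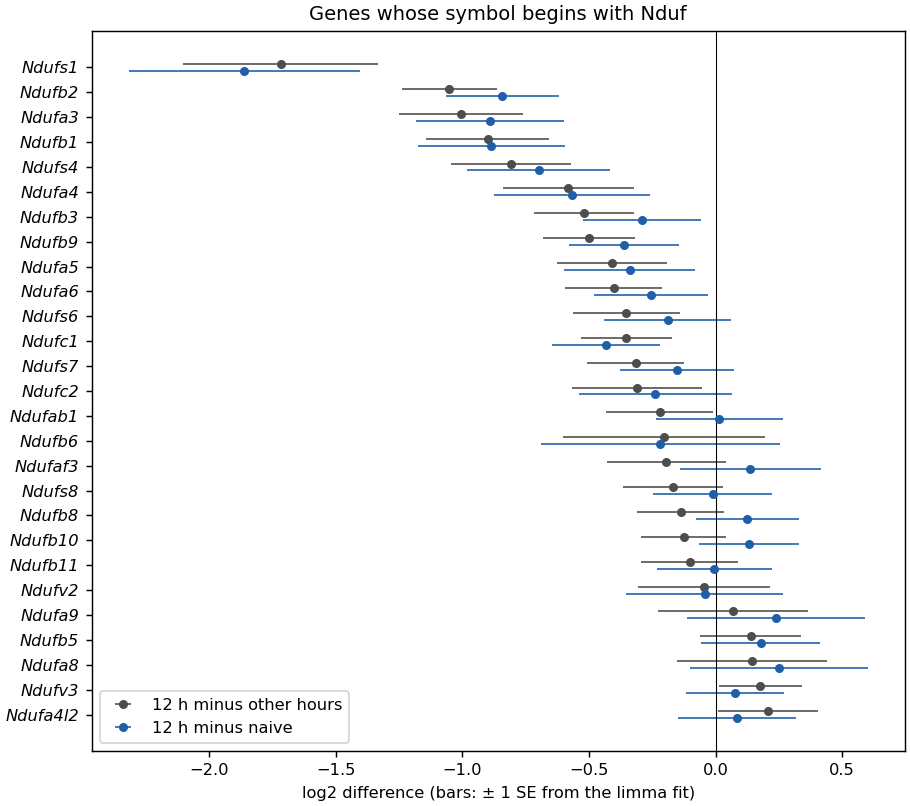
Each row is 1 of 27 tested genes whose symbol begins with Nduf, ordered by the log2 difference between 12 h and the other hours. Points are log2 differences (x axis) and bars are 1 standard error from the limma fit, in grey for 12 h minus the mean of the other 5 hours and in blue for 12 h minus naive. Ndufs1, Ndufb2, Ndufa3 and Ndufb1 stand farthest below 0 in both comparisons.

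Within the fixed list of 44 oxidative phosphorylation genes, which holds only part of the Nduf genes, 7 were lower and 4 higher than naive at an unadjusted p under 0.05, where 4.16% and 4.11% of all genes were. The lower ones were Ndufs1, Ndufb1, Ndufs4, Cox6c, Cox8b, Atp5pf and Atp5f1d, and the higher ones were Cox4i1, Cox5a, Atp5f1b and Uqcrc2. Cox6c, a small cytochrome oxidase subunit, read 126 and 102 units at 12 h, against 234, 193 and 164 units in naive rats, and also lay below all 11 other arrays (144 to 264 units). Its dimmer probe set was above naive, at 36.65 and 38.6 units against 30.7, 21.3 and 20.8 units. Cox4i1, another subunit of the same enzyme, read 5983 and 3584 units at 12 h, against 3202, 2752 and 3480.2 units in naive rats, while its other 2 probe sets overlapped between the groups. The list median was 0.06 against naive, near the 0.08 of all genes, and it turned to -0.03 with median centring of the arrays and to -0.03 without naive replicate 3. Against the other hours the median was -0.14, and the list median of both 12 h arrays lay below that of all 11 other arrays. Atp5if1, the inhibitor of reverse ATP synthase action, had 1 probe set at the floor and 15.7 units at 12 h, against 59.4, 45.1 and 29.7 units in naive rats. Its other 3 probe sets, 2 of them much brighter, differed from naive by only 0.03 to 0.46 on the log2 scale.

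Promoter windows of the named genes were read for 3 short motifs, chosen with the expression values known: the cyclic AMP response element TGACGTCA, the E-box CACGTG and the element AGGTCA that is read by the ROR and REV-ERB receptors. Each was searched on both strands from 250 bases before to 50 bases after the start in the RefSeq promoter table for GRCr8. All 13 genes named as lower than naive had a window there, as did 12 of the 15 named as higher and all 10 named against the other hours. TGACGTCA was in 1 of 13 lower genes (Sh3gl2), in 0 of 12 higher genes and in 1 of 5 genes lower than at the other hours (Ndufb2), and it was in 1.83% of all 33469 windows. CACGTG was in 2 of 13 lower and 0 of 12 higher genes, against 6.42% of all windows. AGGTCA was in 1 of 13 lower and 3 of 12 higher genes and in 1 of 5 genes lower than at the other hours (Ndufb2), against 16.2% of all windows. Windows are shown for Sh3gl2, Ndufb2 and the clock gene Bmal1, all of which hold a match. Sh3gl2 and Ndufb2 had the smallest p of the genes named as lower than naive and lower than at the other hours. Bmal1 was not among the genes counted above. The genes of smallest p named as higher, Cct6a and Il5, are not shown, so these windows do not represent the named genes. The capitals mark TGACGTCA in Sh3gl2 and Ndufb2, where it begins 66 and 29 bases before the start, and AGGTCA in Bmal1, where it begins 15 bases before the start. The AGGTCA of the Ndufb2 window is left in lower case. A match describes letters and not a bound site. The windows lie on the plus strand at chr5:104699020-104699319 (Sh3gl2), chr4:69334057-69334356 (Ndufb2) and chr1:176766078-176766377 (Bmal1).
Sh3gl2: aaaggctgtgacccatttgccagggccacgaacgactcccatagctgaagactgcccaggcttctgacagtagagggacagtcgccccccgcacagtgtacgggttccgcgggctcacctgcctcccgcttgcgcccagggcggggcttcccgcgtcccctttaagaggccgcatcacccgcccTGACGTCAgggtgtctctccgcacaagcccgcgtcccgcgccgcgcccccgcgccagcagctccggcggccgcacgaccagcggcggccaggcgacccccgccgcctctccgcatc
Ndufb2: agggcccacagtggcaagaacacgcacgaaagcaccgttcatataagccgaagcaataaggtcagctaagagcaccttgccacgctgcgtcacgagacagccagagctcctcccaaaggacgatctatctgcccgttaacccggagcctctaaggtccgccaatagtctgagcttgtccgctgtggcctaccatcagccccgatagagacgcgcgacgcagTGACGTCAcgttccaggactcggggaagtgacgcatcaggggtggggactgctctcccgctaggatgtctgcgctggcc
Bmal1: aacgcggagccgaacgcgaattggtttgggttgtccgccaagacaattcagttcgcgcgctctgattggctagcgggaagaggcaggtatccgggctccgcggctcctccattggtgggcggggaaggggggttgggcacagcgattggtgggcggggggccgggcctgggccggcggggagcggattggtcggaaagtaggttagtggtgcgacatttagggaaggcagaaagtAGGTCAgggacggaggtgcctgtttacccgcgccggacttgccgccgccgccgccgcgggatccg

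Bmal1 encodes the activator that pairs with CLOCK at E-boxes of the circadian clock, and its own promoter is read by ROR and REV-ERB. It read 14.8 and 34.0 units at 12 h, against 66.6, 47.8 and 54.9 units in naive rats. Both 12 h arrays lay below all 3 naive arrays, and only the lower one lay below all 11 arrays of the other hours (31.4 to 79.1 units). The log2 difference from naive was -1.32 ± 0.33 (SE), with an unadjusted p of 0.00101 and an adjusted p of 0.233. Without 12 h replicate 2 it was -1.91, with an adjusted p of 0.0335, and without 12 h replicate 1 it was -0.72, with an adjusted p of 0.836. A second Bmal1 probe set went the other way, at 54.02 and 33.1 units at 12 h against 31.9, 26.9 and 30.1 units, a log2 difference of 0.52 and an unadjusted p of 0.24, so the probe sets of Bmal1 disagreed. Dbp, a clock output gene driven through E-boxes, was higher on both 12 h arrays, at 180.4 and 248 units against 165, 175 and 96.4 units, a log2 difference of 0.59 and an unadjusted p of 0.0691. Per2, a repressor of the clock, read 22.1 and 22.7 units at 12 h, against 30.1, 31.2 and 37.8 units in naive rats, with an unadjusted p of 0.0975. Nr1d1, the gene of REV-ERB alpha, overlapped between the groups, at 111 and 123 units against 107, 114 and 65.03 units. Of the 10 tested clock genes, each by its brightest probe set, 1 (Bmal1) was lower and 0 higher at an unadjusted p under 0.05. Of all genes 4.16% were lower and 4.11% higher at that p. The clock times at which the rats were killed are not given in the labels, so the hour after the labelled start and the time of day cannot be told apart.

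**Figure D2:**
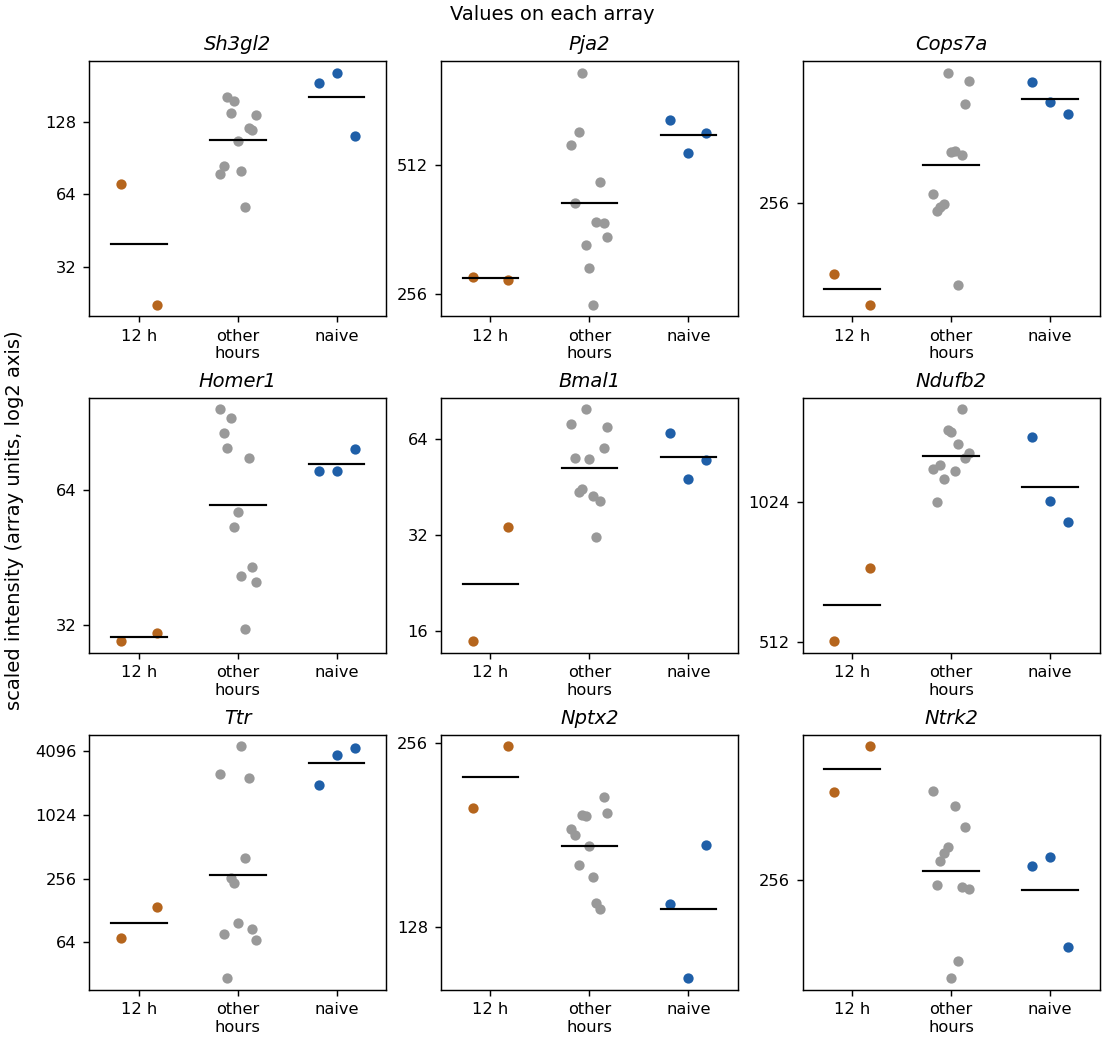
Scaled intensity of 9 genes on every array (1 point an array, array units on a log2 axis), for 12 h on the left (2 arrays), the other hours in the middle (11) and naive on the right (3), with the geometric mean as a bar. The 12 h points of Sh3gl2, Pja2, Cops7a, Homer1, Bmal1, Ndufb2 and Ttr lie below all naive points, and those of Nptx2 and Ntrk2 lie above them.

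Among postsynaptic genes, Homer1 encodes scaffolds that tie group I metabotropic glutamate receptors to their partners and that occur in long and short forms. One of its 6 tested probe sets read 29.4 and 30.7 units at 12 h, against 70.4, 70.5 and 79.1 units in naive rats, a log2 difference of -1.29 ± 0.30 (SE) with an adjusted p of 0.199. The 12 h values of that probe set also lay below all 11 other arrays, which ran from 31.25 to 96.9 units, so the lowest of them was close to 12 h. The other 5 probe sets of Homer1 differed from naive by -0.41 to 0.01, all with overlapping groups, and which form each probe set reads is not annotated here. Gria1, the GluA1 subunit of AMPA receptors, read 98.6 and 138 units at 12 h, against 186, 262 and 211 units in naive rats, a log2 difference of -0.90 ± 0.28 (SE). A second Gria1 probe set was lower as well, by -0.81 on the log2 scale, and the dimmest overlapped. Dlg3, the scaffold SAP102, read 19.0 and 27.4 units at 12 h against 49.3, 47.0 and 42.5 units. Gria2, the subunit that makes AMPA receptors calcium-impermeable, overlapped between the groups on its brighter probe set, at 308 and 311 units at 12 h against 210.04, 230.1 and 350.3 units. Its dimmer one lay below naive, at 104 and 58.8 units at 12 h against 149, 233 and 122 units. Over 31 genes of glutamate receptors and scaffolds, 3 were lower (Gria1, Dlg3 and Nsf) and 0 higher at an unadjusted p under 0.05. Of all genes 4.16% were lower and 4.11% higher at that p. In the list 8 lay below all 3 naive arrays, against 9.57% of all genes. The list median was -0.13 against naive, and it was 0.09 without naive replicate 1.

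In the presynaptic list of 35 genes of synaptic vesicle release, 26 were higher than naive (57.8% of all genes were), but the median of 0.07 was close to that of all genes and became -0.03 with median centring of the arrays. Both 12 h arrays had a list median above all 11 arrays of the other hours, with a median log2 difference of 0.20 from them; 3 genes were higher and 2 lower at an unadjusted p under 0.05, where 5.44% and 3.7% of all genes were. Nsf, the ATPase that takes SNARE complexes apart after fusion, was lower, at 104 and 32.7 units at 12 h against 119.97, 128 and 164 units in naive rats. Unc13c, a vesicle priming factor, was higher, at 34.8 and 22.6 units against 15.04, 14.8 and 9.83 units, and both of its 12 h values exceeded all 11 other arrays. Synaptophysin (Syp), an abundant vesicle protein, read 1135 and 1117 units at 12 h, against 992, 1081 and 1095 units.

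Among ion channels, 1 probe set of Kcnd2, the Kv4.2 subunit of dendritic A-type potassium channels, read 53.4 and 6.83 units at 12 h, against 139.7, 100.5 and 68.1 units in naive rats. Its log2 difference of -2.37 ± 0.59 (SE) rested on 12 h arrays that differed by more than 7-fold. Its second probe set went the other way, at 122 and 102 units against 89.8, 58.8 and 69.1 units. Scn2a, a neuronal sodium channel, read 136 and 129.8 units at 12 h against 238, 278 and 178 units, a log2 difference of -0.77 ± 0.25 (SE). Scn3a, a sodium channel typical of the immature brain, read 106 and 128 units at 12 h against 75.03, 69.03 and 78.04 units, a log2 difference of 0.65 ± 0.31 (SE). Its dimmer probe set went the other way, at 5.37 and 6.28 units at 12 h against 18.9, 17.8 and 18.3 units. Cacna1c, the pore of the L-type calcium channel Cav1.2, had a dim probe set at 22.7 and 18.02 units at 12 h, against the floor on 2 naive arrays and 6.36 units on the third. Its brighter probe set read 115 and 121 units against 87.4, 107 and 99.9 units, a log2 difference of 0.27. In the inhibitory system Gabra4, a GABA-A receptor subunit, read 31.9 and 27.2 units at 12 h, against 58.7, 59.3 and 60.5 units in naive rats. Gad2, a GABA-synthesising enzyme, read 12.95 and 18.8 units at 12 h against 34.3, 23.8 and 29.3 units, and these were the 2 of 20 GABA genes lower at an unadjusted p under 0.05, where 4.16% of all genes were lower. The GABA list held 10 higher and 10 lower genes, with a median of 0.02.

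Growth factors and neuropeptides were more often higher than lower. Of 34 tested genes 25 were higher than naive (57.8% of all genes were), 12 lay above all 3 naive arrays (16.5% of all genes did), and 5 were higher at an unadjusted p under 0.05 (4.11% of all genes were). The median log2 difference was 0.34, against 0.08 for all genes, and it ranged from 0.24 with median centring to 0.42 without naive replicate 3. The dimmest 1555 tested probe sets, of any gene, had median shifts from the naive mean of 0.30 and 0.20 on the 12 h arrays. The brightest 1555 shifted by 0.001 and 0.04. Several members named below were dim, and the part of that shift in this list was not tested. Ntrk2, the gene of the BDNF receptor TrkB, read 360 and 428 units at 12 h, against 270.4, 279.9 and 198 units in naive rats. Both 12 h arrays were higher, with a log2 difference of 0.67 ± 0.28 (SE) and an unadjusted p of 0.0295. Trh, the precursor of thyrotropin-releasing hormone, read 48.0 and 40.2 units at 12 h against 26.2, 28.8 and 24.9 units. Fgf1, a fibroblast growth factor, read 43.9 and 22.3 units at 12 h against 13.7, 19.6 and 19.0 units. Vegfa, the vascular endothelial growth factor, read 52.4 and 18.8 units at 12 h against 14.3, 16.5 and 13.6 units. A second, dim Vegfa probe set was lower, at the floor and 12.65 units at 12 h against 25.3, 21.3 and 27.6 units. Cpe, a carboxypeptidase that trims peptide hormones, was bright, at 5386 and 2927 units against 2612, 2410.0 and 3127 units, and its second 12 h array lay within the naive range. The brightest Bdnf probe set overlapped between the groups, at 67.6 and 50.8 units at 12 h against 80.3, 89.9 and 44.8 units. Igf2 was the 1 list member lower at an unadjusted p under 0.05, at 123 and 134 units against 127, 616 and 477 units. Its other probe sets disagreed, with log2 differences of -0.07, 0.03 and 1.43.

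Immediate early genes such as Arc and Fos are induced within minutes of strong synaptic activity. Of the 34 tested at 12 h, 7 lay above all naive arrays and 2 below all of them, where 16.5% and 9.57% of all genes did. Arc read 207 and 159 units at 12 h, against 153, 195 and 199 units in naive rats, and Fos 113 and 76.6 units at 12 h, against 97.8, 104 and 87.1 units. In this list 2 genes were higher and 3 lower at an unadjusted p under 0.05, where 4.11% and 4.16% of all genes were, and the median was 0.09. Nptx2, an activity-dependent pentraxin that gathers AMPA receptors, read 200.3 and 253 units at 12 h, against 139.8, 106 and 174 units in naive rats, a log2 difference of 0.72 ± 0.22 (SE) with an adjusted p of 0.342. Atf3, a stress-induced factor, read 40.8 and 26.2 units at 12 h against 16.04, 19.2 and 17.6 units. The brightest Jun probe set read 113 and 122 units at 12 h against 244, 136 and 192 units. The 3 other Jun probe sets disagreed, with log2 differences of -1.91, 0.38 and 0.82. The brightest Junb probe set read 43.3 and 28.8 units at 12 h against 79.3, 61.3 and 41.2 units, with overlapping groups. A dimmer Junb probe set had a log2 difference of -2.24 from naive when 12 h replicate 2 was left out. That value rests on 12 h replicate 1 alone, the dimmest array of the series, and the value over both 12 h arrays is not given here. Dusp1, the MAP kinase phosphatase that glucocorticoids induce, was at the floor on 1 12 h array and at 15.9 units on the other, against 18.1, 24.0 and 17.2 units. Nr3c1, the glucocorticoid receptor gene, read 34.1 and 34.7 units at 12 h, against 17.0, 19.6 and 20.9 units in naive rats, and lay above all 11 other arrays, while its second probe set overlapped between the groups.

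Adhesion genes, which are studied in this task for the polysialylated form of NCAM, differed little as a list. The median over the 24 tested genes was -0.02. At an unadjusted p under 0.05, 1 was lower (4.16% of all genes were) and 0 higher. That gene was Cntn1, the adhesion protein contactin 1, at 44.2 and 49.98 units at 12 h against 98.6, 170.4 and 200.1 units in naive rats, a log2 difference of -1.67 ± 0.47 (SE). Ncam1 read 169.7 and 124 units at 12 h, against 185, 196 and 114 units, with overlapping groups. St8sia2, a polysialyltransferase that acts on NCAM, read 29.4 and 14.5 units at 12 h, against 9.55, 24.5 and 8.57 units, also with overlapping groups. In the extracellular matrix list of 37 genes, 5 were lower (Cd44, Vcan, Fmod, Serpine2 and Mmp14) and 0 higher at an unadjusted p under 0.05, where 4.16% and 4.11% of all genes were. The list median was -0.05, and 18 of the 37 were higher than naive. Cd44, a hyaluronan receptor, read 5.69 and 7.46 units at 12 h against 22.5, 14.1 and 23.2 units, below all 11 other arrays as well. Efemp1, the matrix protein fibulin 3, likewise lay below every other array, at 19.6 and 21.4 units at 12 h against 46.2, 42.2 and 36.1 units in naive rats and 34.9 to 54.9 units at the other hours.

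The greatest difference of the named genes was that of Ttr, the thyroid hormone carrier transthyretin, which the choroid plexus makes in quantity. Its 2 probe sets read 70.5 and 137 units and 128 and 224 units at 12 h, against 1988.5, 3763 and 4379 units and 1786, 2849 and 3939 units in naive rats. The log2 differences were -5.03 ± 1.16 and -4.00 ± 0.93 (SE), a level 32.6-fold and 16.03-fold lower at 12 h, with an adjusted p of 0.199 each. The other hours ran from 29.5 to 4588 units for the first probe set, with a median of 234. Only 1 of the 11 arrays of the other hours lay above the naive mean on each Ttr probe set. The low level was thus not particular to 12 h. Igfbp2, an IGF-binding protein, read 42.6 and 59.8 units at 12 h, against 82.3, 307 and 173 units in naive rats. These values are of the probe set with the smallest p of its 3. On it the other hours ran from 49.1 to 97.4 units, all below the naive mean. The remaining Igfbp2 probe sets overlapped between the groups, with log2 differences of -2.29 and -1.83. Prlr, the prolactin receptor, was at the floor on both 12 h arrays of 1 probe set, against 14.5, 80.7 and 47.2 units in naive rats. It was so at least 7.55-fold lower at 12 h on that probe set. On the same probe set the other hours ran from the floor to 32.4 units, all below the naive mean. The Prlr probe sets disagreed: a second read 29.4 and 27.9 units at 12 h against 12.8, 49.2 and 37.3 units, and the remaining one differed by -0.92 on the log2 scale. Of 21 tested markers of choroid plexus, ependyma and meninges 17 were lower at 12 h (42.2% of all genes were), with a median of -0.81. At an unadjusted p under 0.05, 8 of the 21 were lower (4.16% of all genes were). Their summed intensity was 1553 and 2060 units at 12 h, against 3226, 7473 and 7490.0 units in naive rats, so naive replicate 1 stood apart from the other naive arrays. The array medians of the list were -0.23 and -0.12 at 12 h, and -0.19, 1.09 and 1.06 on naive replicates 1, 2 and 3. By that measure naive replicate 1 lay between the 12 h arrays, and the difference rested on naive replicates 2 and 3. The defining marker Ttr was above the floor on all 5 arrays, while Aqp1 and Htr2c were at the floor on both 12 h arrays. Against the other hours the list median was 0.15. In such tissue samples fewer choroid plexus cells and less RNA per cell cannot be told apart, and the part of adhering choroid plexus in the result was not tested.

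Further lower genes had single or mixed probe sets. Slc12a4, a potassium chloride cotransporter, read 10.1 and 35.0 units at 12 h against 57.8, 71.7 and 55.3 units in naive rats, and its second probe set was lower too. Anxa5, which binds phosphatidylserine, read 28.1 and 36.5 units at 12 h against 91.7, 70.7 and 67.2 units, while its brighter probe set differed by -0.08. Tnfrsf21, death receptor 6, read 84.03 and 62.8 units at 12 h against 134, 163 and 129.5 units, while its brighter probe set differed by -0.11. Npepps, a cytosolic aminopeptidase, read 275 and 189 units at 12 h, against 434, 485 and 402 units in naive rats, and lay below all 11 other arrays (351 to 795 units).

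The 15 probe sets named as higher than naive were mostly dim. In 9 of the 15 the geometric mean of the naive arrays was under 20 units, as in 0 of the 15 named as lower. The dimmest 1555 tested probe sets read higher at 12 h as a whole, with median log2 shifts from the naive mean of 0.30 and 0.20 on the 12 h arrays, while the brightest 1555 shifted by 0.001 and 0.04. The part of that shift in the higher genes was not tested. Cct6a, a subunit of the CCT chaperonin that folds actin and tubulin, had the smallest p among them, at 270.4 and 76.6 units at 12 h against 34.6, 57.1 and 36.1 units in naive rats. Its log2 difference was 1.80 ± 0.42 (SE), with an adjusted p of 0.199, and its 12 h arrays stood more than 3-fold apart. Eif2ak3, the endoplasmic reticulum stress kinase PERK, read 40.1 and 29.4 units at 12 h against 13.4, 15.6 and 10.4 units, above all 11 other arrays. Its second probe set overlapped between the groups, and Hspa5, the chaperone BiP of the same stress pathway, was lower, at 439 and 426 units at 12 h against 719.6, 534 and 609 units. Espn, an actin-bundling protein, read 32.9 and 33.2 units at 12 h against 12.0, 10.2 and 16.6 units. Ino80e, a subunit of a chromatin remodeller, was among the brighter ones, at 204 and 276 units at 12 h against 129.6, 104 and 96.9 units. Tpm3, a tropomyosin, had 5 tested probe sets that disagreed, with log2 differences from -0.69 on the brightest to 2.71 on the named one. The named probe set of Eef1a1, a translation elongation factor, read 426 and 96.9 units at 12 h against 66.9, 54.1 and 72.9 units, and its brighter probe set differed by 0.31. Liver genes such as Agxt and Cyp1a2 were on this list at 17.1 to 32.6 units at 12 h, against the floor to 17.6 units in naive rats. The other 6 named as higher were Crp, Dmbt1, Prp2l1, Rfc4, Rhox5 and Rpl21, with log2 differences of 1.13 to 1.93. A dim probe set of Prp2l1 went the other way, at 6.002 and 8.56 units at 12 h against 15.95, 21.8 and 10.7 units in naive rats. The brightest probe set of Rpl21, a ribosomal protein gene, read 895 and 850.4 units at 12 h against 806, 837 and 1103 units in naive rats.

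**Figure D3:**
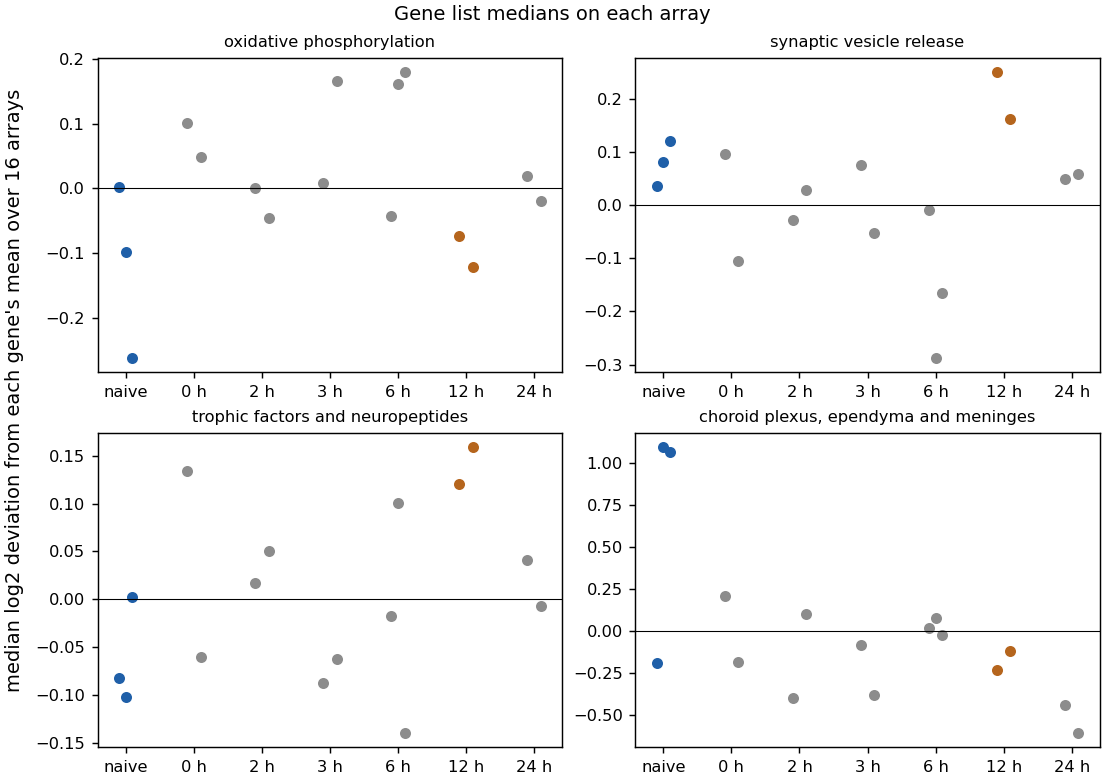
Median log2 deviation of 4 gene lists on each of the 16 arrays, relative to each gene's mean over all arrays, in the order naive, 0, 2, 3, 6, 12 and 24 h, with 1 point an array, blue for naive and brown for 12 h. The 12 h points lie below all other hours for oxidative phosphorylation, within the naive range, and above all other arrays for synaptic vesicle release, and the choroid plexus panel has 2 naive arrays at 1.06 and 1.09 and the third at -0.19.

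Against the equal-weight mean of the other 5 hours, 0 of 6220 probe sets (0%) passed a limma adjusted p under 0.05, and 374 were higher (6.01%) and 259 lower (4.16%) at an unadjusted p under 0.05. Both 12 h arrays lay above all 11 other arrays for 221 probe sets (3.55%) and below all 11 for 67 (1.08%). The 5 named lower genes were Ndufb2, Atp5if1, Efemp1, Npepps and Txnl4b, all of them also below all 3 naive arrays. The 5 named higher genes were Il5, Agxt, Dock8, Cacna1c and Lcat, of which Dock8, an exchange factor for the GTPase CDC42, read 84.4 and 129 units at 12 h, against 44.5 to 69.6 units at the other hours and 55.6, 66.04 and 76.5 units in naive rats. The interleukin gene Il5 read 38.9 and 31.4 units at 12 h, against the floor to 15.03 units at the other hours, and the naive arrays spread around it at the floor, 47.4 and 10.05 units. Lcat, which esterifies cholesterol in lipoproteins, read 45.5 and 48.97 units at 12 h against the floor to 48.3 units at the other hours. Among the lower ones the dim gene Txnl4b read 21.2 and 6.01 units at 12 h against 28.9 to 64.2 units at the other hours. Of the 15 probe sets named as lower than naive, 11 also had an unadjusted p under 0.05 against the other hours, and of the 15 named as higher 13 did. Only 2 of the 15 lower lay below all 11 other arrays, and 7 of the 15 higher lay above all of them. Both comparisons share the 12 h arrays, so these counts are not independent of the naming.

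**Figure D4:**
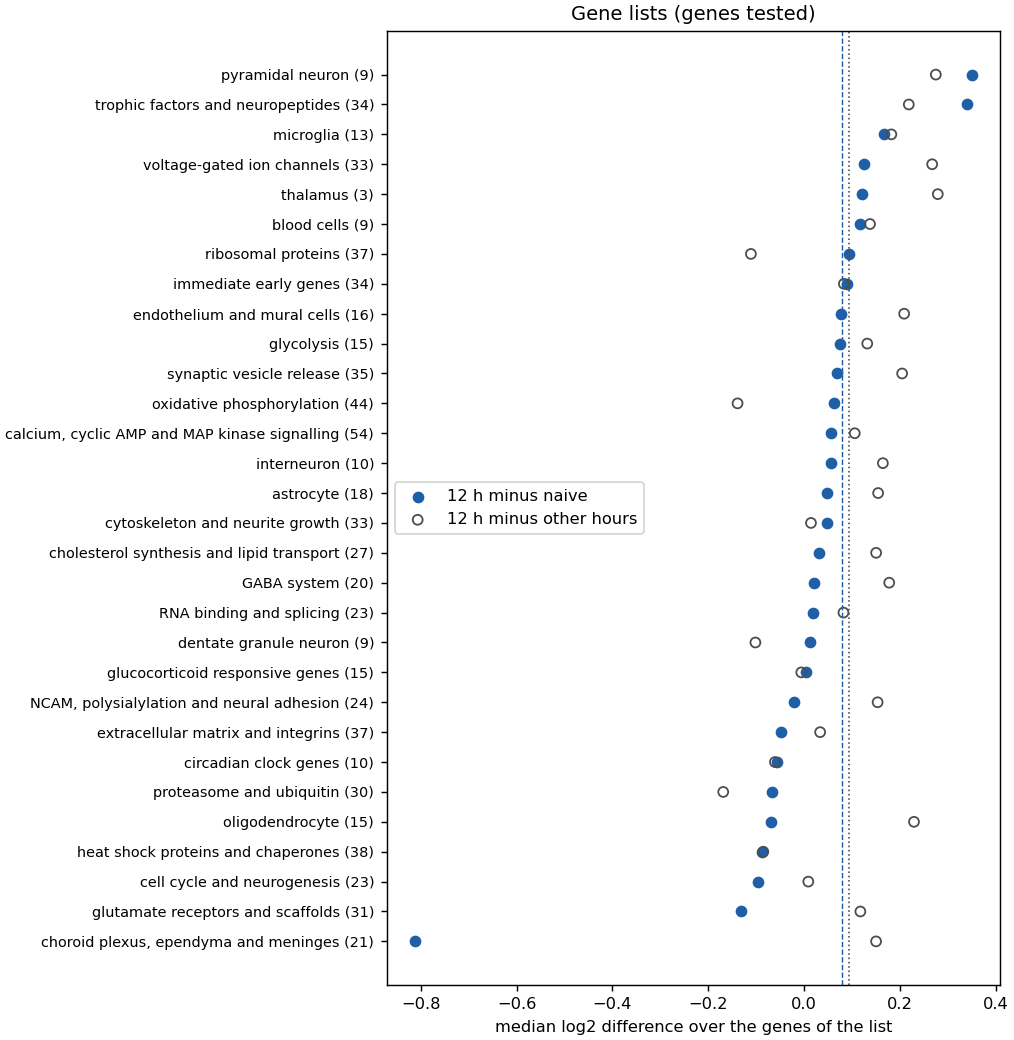
Median log2 difference (x axis) over the tested genes of each of 30 gene lists (rows, with the number of genes tested), filled for 12 h minus naive and open for 12 h minus the mean of the other hours. The vertical lines are the medians of all genes, 0.08 and 0.09. The choroid plexus list stands at -0.81 against naive and at 0.15 against the other hours.

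The remaining lists are given by their medians and calls, where 4.11% of all genes were higher and 4.16% lower at an unadjusted p under 0.05. Median centring of the arrays, which moved the median of all probe sets to -0.04, put the positive medians of the function lists in this paragraph below 0. Ribosomal protein genes had a median of 0.09 against naive, with 2 higher and 1 lower of 37 at an unadjusted p under 0.05, and -0.11 against the other hours. Heat shock and chaperone genes had a median of -0.09, with 2 higher and 1 lower of 38. Cytoskeleton and neurite growth genes had a median of 0.05, with 0 higher and 2 lower of 33. Calcium, cyclic AMP and MAP kinase genes had a median of 0.06, with 0 higher and 1 lower of 54; the lower one was Gnai1, an inhibitory G protein subunit, at 47.7 and 74.7 units at 12 h against 179, 148 and 158 units in naive rats. RNA binding and splicing genes had a median of 0.02, with 1 higher and 2 lower of 23, the lower ones being the RNA-editing enzyme Adarb1 and Hnrnpf. Glycolysis had 0 genes in either direction of 15, cholesterol and lipid transport 0 higher and 1 lower (Idi1) of 27, and cell cycle and neurogenesis 1 higher (Ccne1) and 1 lower (Hes5) of 23. Markers of other cells gave 0 genes higher at an unadjusted p under 0.05 in every such list. Lower ones numbered 1 of 18 for astrocytes (Gja1), 1 of 15 for oligodendrocytes (Car2), 1 of 10 for interneurons (Gad2), 1 of 3 for thalamus (Adarb1), and 0 for pyramidal neurons (9), microglia (13), endothelium and mural cells (16) and blood cells (9). The pyramidal neuron markers had the highest median of the 30 lists against naive, 0.35, and it was 0.25 with median centring. The list median stood at 0.58 on 12 h replicate 1 and at -0.04 on 12 h replicate 2, against -0.10, -0.03 and 0.25 on the naive arrays, and without 12 h replicate 1 the difference was 0.09. Among them neurogranin (Nrgn), a calmodulin-binding protein of forebrain neurons, read 3198 and 1817 units at 12 h against 1705, 1603 and 1806 units in naive rats, and the neurotrophin Ntf3 read 375 and 282 units at 12 h against 184, 149 and 341 units. The part of pyramidal neuron RNA in the other results was not tested.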

How the data were processed

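The deposited table held 1 intensity per probe set and array on a linear scale, per the file headers, and the authors' summarisation method is not given in the sources used here. Control probe sets (59 of 8799) were left out. Each array was scaled to one 2% trimmed mean (105 units, the median over arrays), floored at the pooled 20th percentile and taken to log2. Probe sets above the pooled 40th percentile (16.9 units) on at least 2 of 16 arrays were tested. The comparisons were fitted over all 16 arrays in 7 groups with limma 3.58.1 in R 4.3.3 (lmFit, eBayes with a variance trend, Benjamini-Hochberg adjustment over 6220 probe sets, two-sided). The fit was tested on simulated data. Arrays give no read depth, and their number limits the precision. Genes come from the platform annotation with symbols updated through RefSeq: 7006 of 8740 probe sets had 1 symbol, 308 several and 1426 none. A gene in a list is its brightest tested probe set. Named are the 15 higher and 15 lower probe sets with 1 symbol and the smallest p against naive, the 5 higher and 5 lower against the other hours, any list member, and their second probe sets. The Nduf grouping, the promoter motifs and the choice of windows were added after the values were seen. The members and lists were chosen with earlier results of these data known. Alternatives varied the scaling, floor, filter, variance model, array weights, replicate block, arrays in the fit and each array left out.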

Additional observations from a re-analysis of the deposited data

How the results depend on the processing

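Against naive, 0 probe sets passed under the alternative scalings and floors, the stricter filter, array weights and the replicate block, 27 passed with no filter on dim probe sets (655 higher at an unadjusted p under 0.05), 1 without a variance trend (Cacna1c) and 2 in a fit of the 5 arrays alone (both Ttr probe sets). Leaving out 1 array gave 0 to 23, namely 3 without 12 h replicate 1 (Sh3gl2, Kcnd2 and 1 unnamed), 23 without 12 h replicate 2 (Bmal1, Cct6a, Slc12a4 and Atp5if1 among them) and 5 without naive replicate 1 (Enpp2, Slc4a2, Prlr, Igfbp2 and Sostdc1). An arm left with 1 array was assumed to vary like the other groups. Leaving out 1 array gave 94 to 363 higher and 253 to 382 lower probe sets at an unadjusted p under 0.05. The filter at the 60th percentile gave 159 higher. Median centring, which moved the median of all probe sets to -0.04, gave 166 higher and 474 lower in place of 282 and 349, and quantile normalization 241 and 420. Against the other hours, 38 passed with no filter (836 higher), 2 without a variance trend (Cacna1c and Agxt), 5 without 12 h replicate 1 and 31 without 12 h replicate 2. Leaving out 1 array there gave 140 to 383 higher and 187 to 346 lower. Median centring gave 136 higher and 534 lower in place of 374 and 259, quantile normalization 244 higher and 377 lower, and the 60th percentile filter 208 higher. The cause of these shifts was not tested, apart from the number of probe sets tested under each filter (8740 and 4167). None of the 40 differences named by smallest p turned direction under the alternatives run, and 24 of 558 recomputed values passed the threshold. Of 63 list members at an unadjusted p under 0.05, recomputed after the data were seen, none turned its direction and 3 passed the threshold in 1 alternative each (Bmal1, Psmb9 and Sostdc1). The 15 lower and 15 higher probe sets named against naive all lay outside the naive arrays. Leaving out 1 array could therefore not turn their direction. The list members were chosen for their small p, which favours a stable direction. All tested probe sets were refitted in each alternative, but the directions of second probe sets were not followed. Without 12 h replicate 1 the log2 difference was -0.14 for Psmb9, -0.21 for Ndufs4, 0.12 for Cpe and 0.35 for Vegfa, and without 12 h replicate 2 it was -0.38 for Nsf and -0.43 for Gja1. Of the recomputed list medians 41 moved by more than the spread between arrays and 409 did not. Same-numbered arrays of the 2 groups deviated from their group means with correlations of 0.044 and 0.043. The deviations of the 2 arrays at 12 h mirror each other, so these values cannot show whether the numbers pair arrays. A fit with the replicate block passed 0 probe sets against naive (221 higher, 301 lower) and 0 against the other hours (361 and 254). Among genes beginning with Nduf, the count lower than at the other hours at an unadjusted p under 0.05 ran from 4 without 12 h replicate 1 to 13 with median centring. The 2 arrays at 12 h, the dimmer of them the dimmest of the series, limit what a test can find.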
